A study of Mus musculus with 34 samples.

Results

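The Notch pathway was described in J1 mouse embryonic stem cells (mESCs) through 10 genes, namely the receptors Notch1, Notch2 and Notch3, the ligands Dll1, Dll3 and Jag1, the DNA-binding effector Rbpj, and the targets Hes1, Hes5 and Hey1. They were taken by name from the pathway, with earlier results of these data known, and each was found once among the 23366 rows of the deposited table of normalized counts. RNA-seq libraries of J1 cells in serum medium without LIF (serum/-LIF, n = 2) were compared with libraries from the same medium with 0.5 mg/ml purified Royalactin (serum/-LIF + Royalactin, n = 2), a major protein of royal jelly. Royalactin was made in CHO cells and carried FLAG and His tags. All cultures were grown on gelatin-coated plates, and the sample labels give passage 40, which is not the passage that the paper states. J1 is an established mESC line, so the libraries represent a single genotype. The labels state growth in triplicate but not which library came from which culture, and p-values therefore measure only the spread between these libraries, which may be partly technical. The 30 ATAC-seq samples of the series were not analysed here.

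Notch receptors are single-pass proteins that are cut when a Delta or Jagged ligand on a neighbouring cell binds them. The freed intracellular part enters the nucleus and joins Rbpj, which then switches from repression to activation of genes such as Hes1, Hes5 and Hey1. In mESCs the pathway is best known for its role in leaving pluripotency, above all towards the neural lineage, and undifferentiated cells can self-renew without it.

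Rbpj binds DNA at a core sequence, TGGGAA, and this gives the promoters of its target genes a readable feature. RefSeq promoter windows (GRCm38.p6, the 250 bases before each annotated start) were matched by symbol for 8 of the 10 genes, all except Hes1 and Hey1, in 10 windows. The core was searched on both strands, where it reads TTCCCA on the other strand. It was found in 3 windows, 1 of Hes5 and 2 overlapping windows of Rbpj, which share a core. Of 32851 mouse windows of the same length, 21.6% held at least 1 copy and 2.77% at least 2. The longer form GTGGGAA, which contains the core, occurred in 5.42% of windows, and 0.161% held at least 2 copies. The window of Hes5 (chr4:154960673-154960922, plus strand) held 2 copies of the longer form, with the core starting 226 and 82 bases before the start site and in opposite orientations. The first window of Rbpj (chr5:53590096-53590345, plus strand) held 2 cores, 149 and 65 bases before the start, neither of them in the longer form. Both windows are shown because they hold matches to the core, which are in capitals. Binding of Rbpj to them was not tested.
Hes5: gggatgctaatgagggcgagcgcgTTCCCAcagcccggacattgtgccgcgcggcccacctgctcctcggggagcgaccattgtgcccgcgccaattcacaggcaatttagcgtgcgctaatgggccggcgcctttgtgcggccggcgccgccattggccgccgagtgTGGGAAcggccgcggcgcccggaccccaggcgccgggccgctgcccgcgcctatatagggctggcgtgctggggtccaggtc
Rbpj: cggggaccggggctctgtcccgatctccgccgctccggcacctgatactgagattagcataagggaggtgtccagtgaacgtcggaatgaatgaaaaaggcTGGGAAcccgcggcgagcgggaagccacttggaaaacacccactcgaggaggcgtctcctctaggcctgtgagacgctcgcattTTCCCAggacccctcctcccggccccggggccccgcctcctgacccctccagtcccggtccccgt
The matches describe these letters only. Both windows are referred to again with the values of these genes.

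None of the 9 genes tested passed the threshold for a difference with Royalactin, and most of their intervals also allow a change of at least 2-fold. Rbpj had the highest level, although its counts are uncertain because the genome holds a near-identical copy of its exons. The difference between conditions exceeded both replicate differences for 3 of the 9 genes. Of the genes, 9 (all except Hes5) reached a mean of 10 normalized counts and were tested with limma on log2(normalized count + 1). A normalized count is a read count divided by the DESeq size factor of its library. Of these 9 genes, 0 passed an adjusted p-value of 0.05 (Benjamini-Hochberg over 12993 genes), against 64 of all genes, or 0.493%. At an unadjusted p-value under 0.05 the count was 1, Rbpj, which was higher with Royalactin, against 9.34% of all genes in either direction and 4.76% higher. When an unadjusted p-value under 0.05 was combined with a change of at least 2-fold, 0 of the 9 genes were selected. Of all genes 7.13% met this, 3.52% higher and 3.61% lower. Log2 fold changes had a median of 0.26 over the 9 genes and of -0.0076 over all genes, and the median size of the change without its sign was 0.68 and 0.40. Both Royalactin libraries lay above both serum/-LIF libraries for Rbpj and Hey1, and below them for Notch3 and Dll3. Such a separation was seen for 38.6% of all genes tested, 19.7% higher and 18.9% lower. An exact permutation test of 2 libraries against 2 cannot give a p-value below 0.333.

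**Figure D1:**
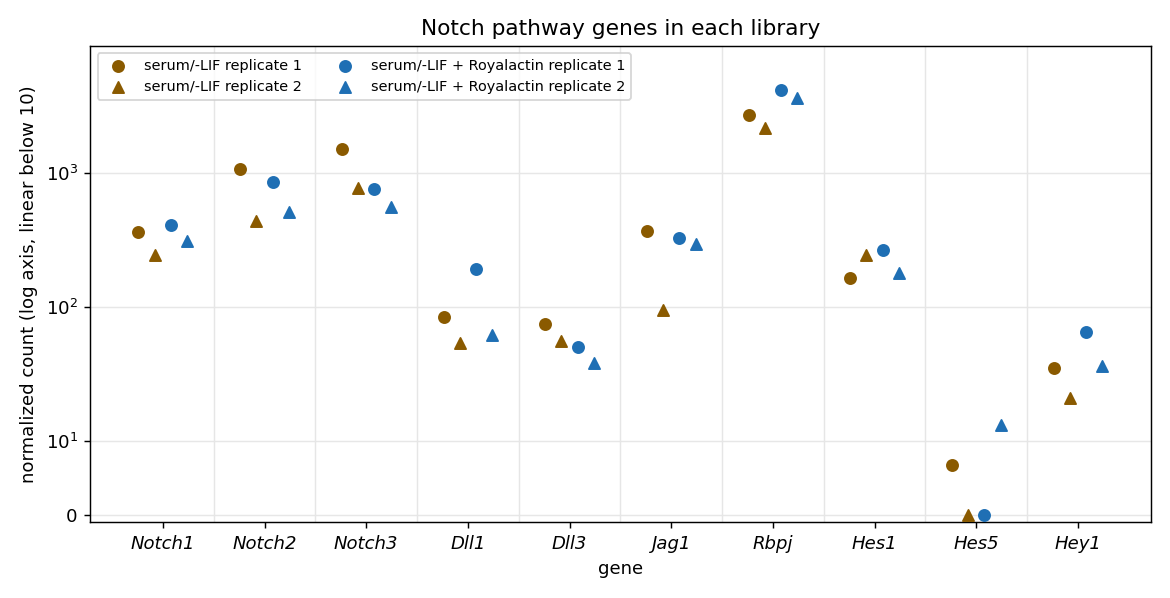
Normalized counts (y axis, logarithmic above 10) of the 10 Notch pathway genes (x axis) in each of the 4 libraries, with circles for replicate 1, triangles for replicate 2, brown for serum/-LIF and blue for serum/-LIF + Royalactin. The Rbpj points lie between 2188 and 4195 in 2 separate groups, the Notch2 points of the conditions interleave, and Hes5 is at 0 in 1 library of each condition.

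The libraries held 14737796 to 17597818 reads on genes, and 7878527 to 15999458 without Rn45s, the ribosomal RNA precursor, which took 46.6% and 21.6% of the reads in the first and second serum/-LIF library. With Royalactin these shares were 38.4% and 9.08%. All 10 pluripotency markers were detected in every library, and Pou5f1, the gene for Oct4, lay between 4996 and 7453 normalized counts. Of these markers, 5 were called higher with Royalactin (Benjamini-Hochberg adjusted limma p under 0.05), against 0.331% of all genes.

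In the sentences that follow, the values of replicate 1 come before those of replicate 2, and positions are in mm9. The receptors differed in how far their replicates lay apart. Notch1 (chromosome 2, 26313423 to 26372183, minus strand), best known for its roles in T cells and neural progenitors, had 366 and 243 normalized counts in serum/-LIF. With Royalactin it had 414 and 310.4. The ranges of the conditions overlapped, and the log2 fold change was 0.26 (95% interval -0.58 to 1.10, limma adjusted p = 0.881). The interval runs from 0.671-fold to 2.15-fold. Without serum/-LIF replicate 2 the value was -0.031.

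Notch2 (chromosome 3, 97817461 to 97954290, plus strand), a close relative of Notch1, had 1077 and 438 normalized counts in serum/-LIF and 867 and 512 with Royalactin. Replicate 1 was the higher library in both conditions, by 2.46-fold in serum/-LIF and 1.69-fold with Royalactin, and the conditions overlapped. Its log2 fold change was -0.043 (95% interval -0.96 to 0.87, limma adjusted p = 0.986), and it was 0.60 without serum/-LIF replicate 1 and 0.34 without Royalactin replicate 2.

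Notch3 (chromosome 17, 32257765 to 32303825, minus strand), known for its part in vascular smooth muscle, had 1525 and 776 normalized counts in serum/-LIF and 766 and 558 with Royalactin. Both Royalactin libraries were below both serum/-LIF libraries, although the lower serum/-LIF library and the higher Royalactin library were nearly equal. Its log2 fold change was -0.73 (standard error 0.37, 95% interval -1.52 to 0.055, limma adjusted p = 0.584). Without serum/-LIF replicate 1 the value was -0.25. Without serum/-LIF replicate 2 it was -1.22, with an unadjusted limma p of 0.00383, and it then met the 2-fold selection (adjusted p = 0.190).

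Markers of smooth muscle, in which Notch3 is known to be expressed, had lower summed counts with Royalactin as well. The summed normalized count of 8 such markers was 3207 and 3526 in the serum/-LIF libraries and 541 and 642 in the Royalactin libraries. Tagln alone had 1896 and 2524 of these in serum/-LIF and 135 and 240 with Royalactin. Des and Smtn overlapped between conditions, and Lmod1 had a log2 fold change above 0. Of the 7 tested, 6 had a log2 fold change below 0 and 2 were called lower, Tagln and Cnn1, against 0.162% of all genes. Myh11, a defining marker of mature smooth muscle, was at 0 to 13.5 normalized counts. The part of these cells in the Notch3 values was not tested, and in bulk RNA fewer cells of a type and less RNA per cell cannot be told apart.

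Relative to the other receptors in the same library, the Notch3 level also lay lower with Royalactin. Per kilobase of exon, the ratio of Notch3 to Notch1 was 7.36 and 5.65 in serum/-LIF and 3.27 and 3.18 with Royalactin. The ratio of Notch3 to Notch2 was 1.85 and 2.32 in serum/-LIF and 1.15 and 1.42 with Royalactin. In both ratios the conditions did not overlap. These ratios were chosen after the values were seen and carry no test. The ratio of Notch2 to Notch1 overlapped, at 3.98 and 2.44 against 2.83 and 2.23.

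Among the ligands, Jag1 (chromosome 2, 136907192 to 136942380, minus strand), of the Jagged type, had 372 and 95.2 normalized counts in serum/-LIF and 327 and 295 with Royalactin. The serum/-LIF libraries differed by 3.90-fold and enclosed both Royalactin values, which differed by 1.11-fold. The log2 fold change was 0.72 (95% interval -0.46 to 1.90, limma adjusted p = 0.742). It was 1.69 without serum/-LIF replicate 1 (limma adjusted p = 0.189), where it met the 2-fold selection, and -0.26 without serum/-LIF replicate 2.

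Dll1 (chromosome 17, 15504318 to 15513836, minus strand), the Delta-type ligand of somite and neural progenitors, had 84.3 and 53.8 normalized counts in serum/-LIF and 193 and 62.0 with Royalactin. One Royalactin library stood above the other 3, and the second lay between the serum/-LIF values. The log2 fold change of 0.69 (95% interval -0.73 to 2.12, limma adjusted p = 0.807) became -0.12 without Royalactin replicate 1. The exons of Dll1 overlap A930024N18Rik on the opposite strand.

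Dll3 (chromosome 7, 29076673 to 29087257, minus strand), a divergent ligand that acts inside the cell and does not activate receptors on neighbours, had 74.9 and 55.9 normalized counts in serum/-LIF and 50.3 and 37.9 with Royalactin. In reads these were 56 and 54 against 50 and 55, so the nearly equal read numbers separated only after scaling by library size factors. The log2 fold change was -0.56 (95% interval -2.07 to 0.95, limma adjusted p = 0.857).

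Rbpj (chromosome 5, 53947018 to 54048684, plus strand), through which the Notch receptors reach DNA, had 2720.1 and 2188 normalized counts in serum/-LIF and 4195 and 3641 with Royalactin. The conditions did not overlap, and the gap between their means, 2454 ± 376 and 3918 ± 392 (SD, n = 2), was larger than either replicate gap. Its promoter is one of the sequences printed above. The log2 fold change was 0.68 (standard error 0.29, 95% interval 0.051 to 1.31), or 1.60-fold. Its limma p-value was 0.0361 before and 0.484 after Benjamini-Hochberg adjustment. It was the only one of the 10 genes with an unadjusted p-value under 0.05, and its change was under 2-fold.

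The Rbpj counts are uncertain because the mouse genome holds a near-identical copy of its exons. Of 202 tiles of 75 bases along the exons, 125 (61.9%) also matched chromosome 6 between 46400001 and 46500000 with up to 2 mismatches, where the annotation places Rbpsuh-rs3. How the counting treated reads that match both places is not stated. For the other 9 genes, 0% to 0.417% of tiles matched elsewhere.

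The profiles over the 4 libraries closest to that of Rbpj were those of 3 genes, with root mean square distances of the centred log2 values of 0.0231 for Hsf2, 0.0231 for Mtr and 0.0249 for Kat7. With 4 libraries such a likeness is weak, since 103 of the 12992 other genes lay within 0.1.

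Hes1 (chromosome 16, 30064470 to 30067882, plus strand), the repressor that oscillates in progenitors and is a direct target of Notch in many tissues, had 164 and 244 normalized counts in serum/-LIF and 267 and 181 with Royalactin. The libraries of the conditions alternated. Its log2 fold change was 0.13 (95% interval -0.82 to 1.08, limma adjusted p = 0.954), so changes from 0.567-fold to 2.12-fold lie within the interval. It was -0.15 without serum/-LIF replicate 1 and also without Royalactin replicate 1.

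Hes5 (chromosome 4, 154335032 to 154336480, plus strand), the target most tied to neural progenitors and the gene whose promoter holds both GTGGGAA copies printed above, was close to the limit of detection. It had 5 and 0 reads in serum/-LIF and 0 and 19 reads with Royalactin, which are 6.69, 0, 0 and 13.1 normalized counts. In each condition 1 library had no read, where a count of 0 allows up to 3 reads by counting error alone. Its mean was under 10, so it was not among the genes tested. When every gene with a value above 0 was tested instead, the log2 fold change of Hes5 came to 0.44 with a limma adjusted p of 0.945, and no difference was detectable at this depth.

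Hey1 (chromosome 3, 8663362 to 8667039, minus strand), a related repressor of cardiovascular development, had 34.8 and 20.7 normalized counts in serum/-LIF and 65.4 and 36.5 with Royalactin, from 20 to 65 reads per library. The lower Royalactin library and the higher serum/-LIF library differed little. The log2 fold change was 0.84, the highest of the 9 tested genes, with a 95% interval of -0.97 to 2.65 (limma adjusted p = 0.814).

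**Figure D2:**
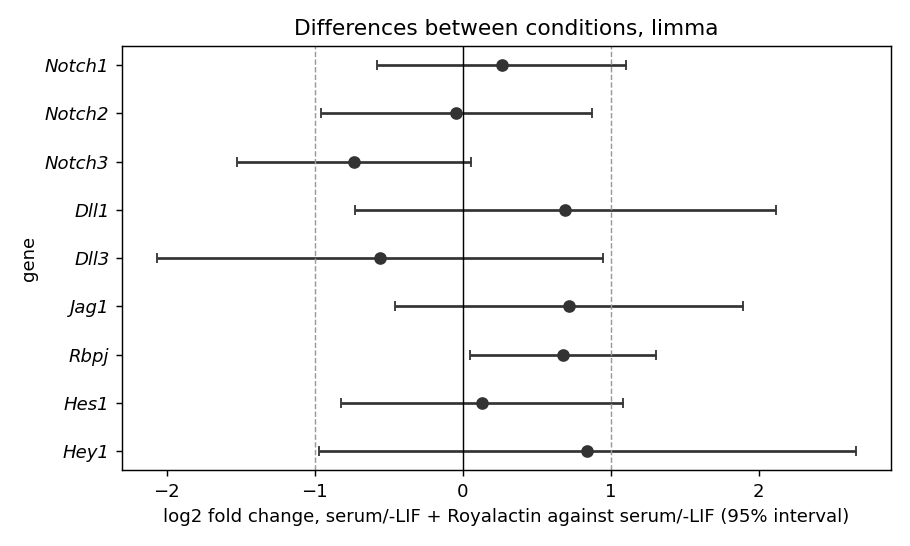
Log2 fold changes (x axis) of the 9 tested genes (y axis) between serum/-LIF + Royalactin and serum/-LIF, as points with 95% intervals from limma and dashed lines at a 2-fold change. Every interval except that of Rbpj (0.051 to 1.31) crosses 0, and those of Dll3 and Hey1 are the widest.

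Replicate 1 exceeded replicate 2 in most of these values. In serum/-LIF, replicate 1 was higher than replicate 2 for 8 of the 9 tested genes, and with Royalactin for 9 of 9. Both held for 8 genes, every tested gene except Hes1, and for 28.1% of all genes tested. The median replicate difference of the 9 genes was 0.64 on the log2 scale in serum/-LIF and 0.46 with Royalactin, beside a median size of the condition difference of 0.68. Over all genes the replicate differences were 0.57 and 0.39. The difference between conditions exceeded both replicate differences for 3 of the 9 genes and for 25.6% of all genes. The replicate 1 libraries also had the larger Rn45s share in each condition (46.6% and 38.4% against 21.6% and 9.08%), and the part of this in the counts was not tested.

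**Figure D3:**
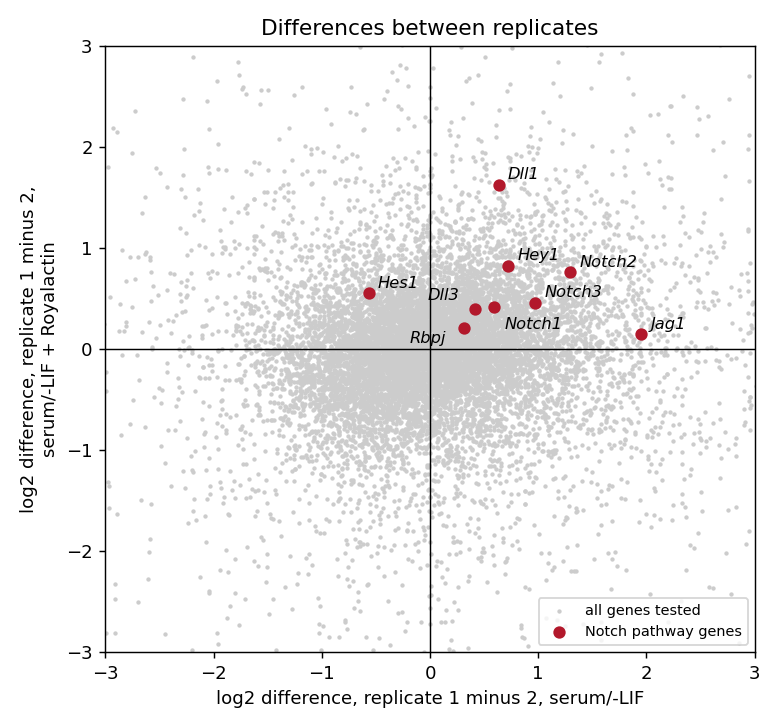
Log2 difference of replicate 1 minus replicate 2 in serum/-LIF (x axis) and in serum/-LIF + Royalactin (y axis), for the 9 tested Notch pathway genes (red, named) and all genes tested (grey, 902 of which lie beyond the limits of 3 and are not drawn). All named genes except Hes1 lie in the upper right part of the plot, where both differences are above 0 and which holds 28.1% of all genes.

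Levels of different genes were compared per kilobase of exon, since longer genes collect more reads. Rbpj had the highest level, with a mean of 548 normalized counts per kilobase over the 4 libraries, 4.86 times that of Notch3. This level is uncertain, since 61.9% of the Rbpj exon tiles also matched another place in the genome. Notch3 followed with 113, Hes1 with 105, Notch2 with 68.9 and Jag1 with 46.7. Lower levels were found for Notch1 with 23.4, Dll1 with 23.3, Dll3 with 19.0, Hey1 with 17.9 and Hes5 with 3.63.

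Only Rbpj stood clear of its neighbour in this order, with 376 to 721 per kilobase in single libraries against 69.3 to 190 for Notch3. For the 8 other of the 9 neighbouring pairs the ranges over the libraries overlapped, so their order was not resolved. In serum/-LIF Notch3 had 143 ± 65.8 and Hes1 100.3 ± 27.7 per kilobase, and with Royalactin Notch3 had 82.3 ± 18.4 and Hes1 109.9 ± 29.7 (SD, n = 2), so the pair changed places within their spread. The exons of Notch1 counted here sum to 14.2 kilobases, against 9488 bases for its longest transcript, which lowers its value. Exons of Notch1, Notch3 and Hes5, like those of Dll1, overlap genes annotated on the other strand, and no source states if reads were counted by strand.

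**Figure D4:**
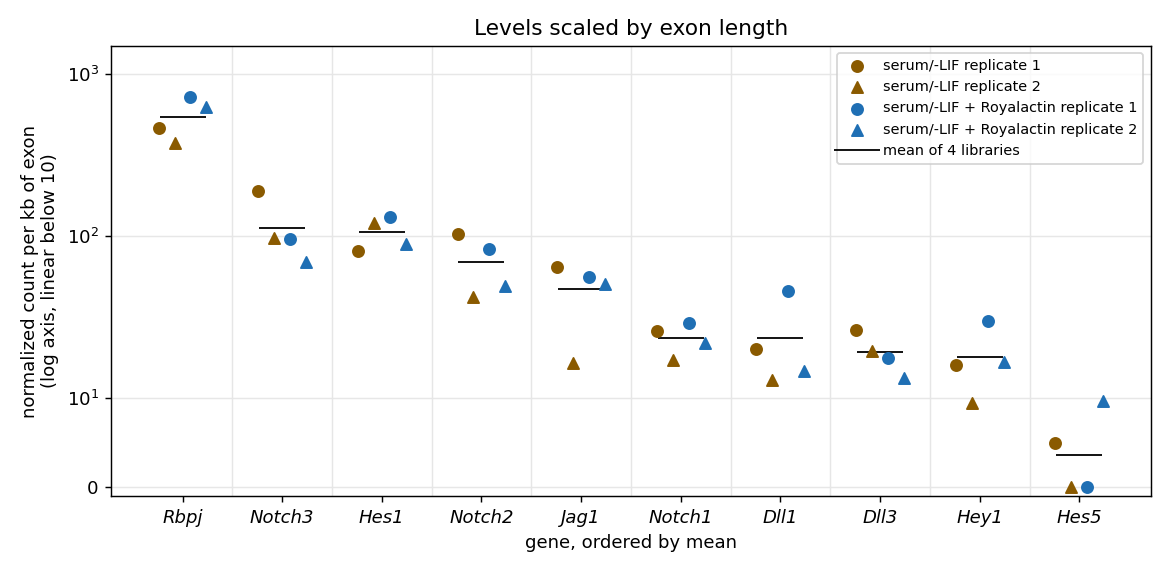
Normalized counts per kilobase of exon (y axis, logarithmic above 10) for the 10 genes ordered by their mean (black bars), with one point per library. Rbpj lies above all other genes in every library, from 376 to 721, and the ranges of all other neighbours overlap.

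In the rest of the pathway, 1 gene passed the adjusted threshold, and it was higher with Royalactin. In 8 lists of 75 further genes, 63 were tested and 1 passed the adjusted p-value of 0.05, against 0.493% of all genes. At an unadjusted p-value under 0.05 the number was 8 (12.7%), 6 higher and 2 lower with Royalactin, against 9.34% of all genes. The median log2 fold change over the 63 genes was -0.025, with 29 above 0 and 34 below.

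The gene that passed was Kat2b, the acetyltransferase PCAF, which acts with the Notch nuclear complex and with many other factors. It had 358 and 312 normalized counts in serum/-LIF and 1376 and 1295 with Royalactin, and both Royalactin libraries were far above the others. Its log2 fold change was 2.00 (standard error 0.32, limma adjusted p = 0.0123). The adjusted p was between 0.179 and 0.719 without serum/-LIF replicate 1 or without either Royalactin library, and 0.248 without the variance trend, with changes of 1.95 to 2.10. Of its 75-base exon tiles, 39.7% also matched another place in the genome, so its counts are uncertain.

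Of the 8 nuclear coactivators, 2 lay above 0 and 6 below, with a median log2 fold change of -0.14. Maml2, a Mastermind scaffold that bridges Rbpj and coactivators, had the largest positive value, with 12.0 and 9.32 normalized counts in serum/-LIF and 56.3 and 96.4 with Royalactin (log2 fold change 2.69, limma adjusted p = 0.338). Its relative Maml3 had the lowest value, -0.86 (adjusted p = 0.782).

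Of 11 tested nuclear corepressors, 6 lay above 0, 5 below and 0 passed, with a median log2 fold change of 0.16. Tle4, a Groucho corepressor that Hes proteins recruit, had 1264 and 1015 normalized counts in serum/-LIF and 2620.2 and 1965 with Royalactin (log2 fold change 1.00, limma adjusted p = 0.237). L3mbtl3, which represses with Rbpj, had the lowest value of -1.02 (adjusted p = 0.591).

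Of 8 genes of receptor glycosylation and ligand activation, 4 lay on each side of 0 and 0 passed. Mib2, a ubiquitin ligase for Notch ligands, had 100.3 and 24.8 normalized counts in serum/-LIF and 219 and 240 with Royalactin (log2 fold change 2.17, limma adjusted p = 0.227). Lfng, a Fringe glycosyltransferase that sets ligand preference, had the lowest value of -0.85 (adjusted p = 0.808), and its 132 normalized counts in serum/-LIF replicate 1 stood above 31.1 to 38.2 in the other libraries.

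For receptor cleavage, 10 genes were tested and 0 passed, with 4 above 0 and 6 below. Aph1c, a subunit of gamma-secretase, had the lowest value of -3.02 (limma adjusted p = 0.631), from 0 to 39 reads per library, and it was -1.11 without Royalactin replicate 1 and -4.93 without Royalactin replicate 2.

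Of 11 negative regulators and endocytic factors, 7 lay above 0 and 4 below, and 0 passed. Dtx4, a Deltex ubiquitin ligase, had 245 and 252 normalized counts in serum/-LIF and 75.4 and 53.7 with Royalactin, without overlap (log2 fold change -1.95, limma adjusted p = 0.143). Dtx1, its relative, had the largest positive value of 1.25 (adjusted p = 0.535).

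The receptors and ligands outside the 10 genes were Notch4, Dll4, Jag2, Dlk1, Dlk2, Dner and Cntn1, of which 5 were tested and 0 passed. Dll4, the Delta ligand of arteries, had no read in any library. Jag2, with the highest counts of this list, had 400 and 317 normalized counts in serum/-LIF and 149 and 246 with Royalactin. Its conditions did not overlap (log2 fold change -0.89, limma adjusted p = 0.542). Notch4, an endothelial receptor, had 20 and 0 reads in serum/-LIF and 28 and 48 with Royalactin (log2 fold change 2.58, limma adjusted p = 0.680). That value was 4.98 without serum/-LIF replicate 1 and 0.18 without serum/-LIF replicate 2. Cntn1, an adhesion molecule reported as a Notch ligand, had 16 and 18 reads in serum/-LIF and 0 in both Royalactin libraries. Its serum/-LIF mean was 7.88-fold above a floor of 3 reads per Royalactin library, a ratio that leaves out the spread between libraries. The log2 fold change was -4.39 (95% interval -9.38 to 0.60, limma adjusted p = 0.610), so the interval also includes no change. The median of the 5 log2 fold changes was 1.49, which placing Cntn1, the lowest value, at that floor cannot change. It was the value of Dner, with 0 and 24 reads in serum/-LIF and 18 and 14 with Royalactin. The conditions overlapped for Dner, and its ratio of means was 1.12. Notch4 and Dlk1 also had no read in serum/-LIF replicate 2, which raises their log2 fold changes.

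Of 12 other Hes and Hey family members and targets, 7 were tested and 0 passed, with 2 above 0, 5 below and a median log2 fold change of -0.88. The 7 were Hes6, Hey2, Bhlhe40, Id1, Myc, Ccnd1 and Gfap. The median was the value of Hes6, whose conditions overlapped, at 202 and 280 normalized counts in serum/-LIF and 72.4 and 229 with Royalactin. Hes7, Heyl and Helt had no read in any library. Hey2 had the lowest value of -2.61 (limma adjusted p = 0.714), from 0 to 27 reads, and it was -0.74 without Royalactin replicate 1 and -4.48 without Royalactin replicate 2. Gfap, the astrocyte filament, had the highest value of 0.93 (adjusted p = 0.896), from 3 to 18 reads, and it was 1.84 without serum/-LIF replicate 1 and 0.030 without serum/-LIF replicate 2. Ccnd1, a cell cycle gene, had the highest counts of the list, 1199 to 1593.

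Of 7 proneural genes that Hes factors repress, 3 were tested and 0 passed. Neurog3 had the highest value of 1.31 (limma adjusted p = 0.794) and Olig2 the lowest of -0.19 (adjusted p = 0.924). Neurog2 had no read in any library, and Neurog1 and Atoh1 had at most 3.02 normalized counts in any library.

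**Figure D5:**
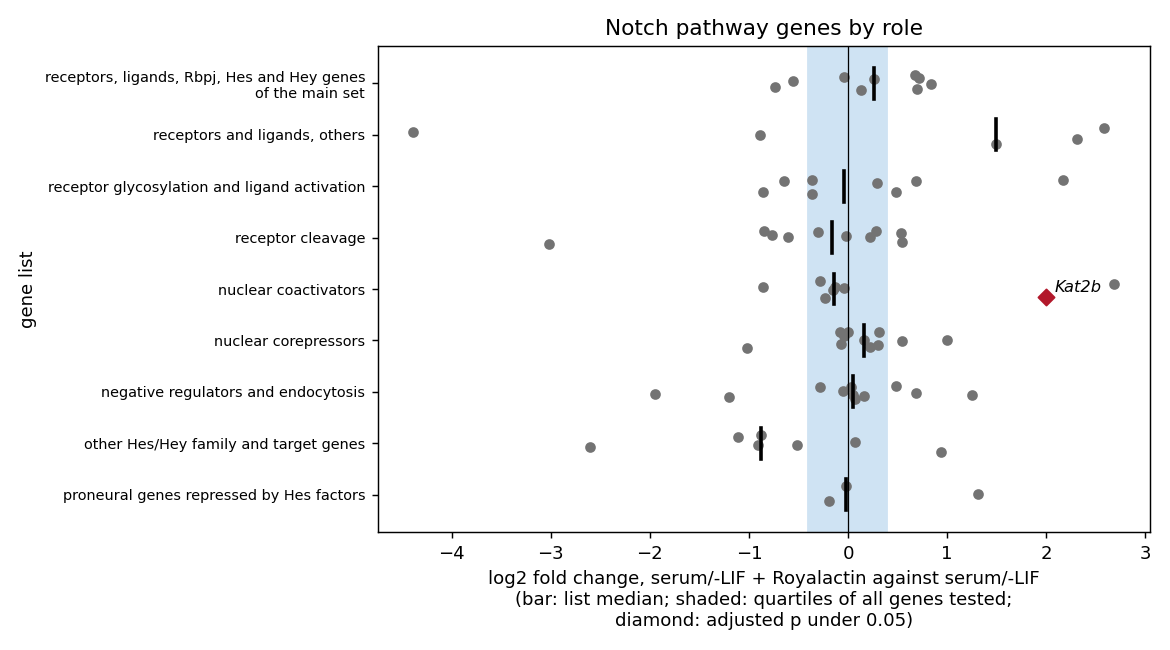
Log2 fold changes (x axis) of the tested Notch pathway genes by list (y axis), with a bar at each list's median, a red diamond for an adjusted p under 0.05 and shading between the quartiles of all genes tested (-0.41 and 0.39). Kat2b is the single diamond, at 2.00, and the medians of all lists except the other receptors and ligands and the other Hes and Hey genes lie within the shading.

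Markers of further cell types in which Notch genes are active gave these values. Of 10 neural progenitor markers 6 were tested, 3 with a log2 fold change above 0 and 3 below, and 1 was called lower with Royalactin, against 0.162% of all genes. This was Nes, at 1489.8 and 1099 normalized counts in serum/-LIF and 334 and 326 with Royalactin. The summed counts were 1986 and 1898 against 1008 and 914, and Nes made up most of the serum/-LIF sums. Pax6 lay the other way without overlap, at 93.6 and 79.7 against 172 and 171, as did Sox21, at 1.34 and 17.6 against 43.3 and 57.8, and neither passed. Zic1 and Lhx2 were at 0 to 8.95. Of 8 endothelial markers 3 were tested, all with a log2 fold change above 0, and 0 passed. Markers below the filter went both ways. Tie1 lay lower with Royalactin, at 28.1 and 7.25 against 0 and 1.38, and Esam higher, at 1.34 and 0 against 16.1 and 14.5. Cdh5 and Vwf overlapped. The sums over the 8 markers were 393 and 207 in serum/-LIF and 898 and 869 with Royalactin. Most of this was Pecam1, a gene that mESCs also express, and Emcn was at 0. Of 10 fibroblast markers 3 were tested and 0 passed, with sums of 164 and 94.2 against 97.6 and 69.5, and Postn, Pdgfrb and S100a4 at 0. Among those tested, Dcn had 28 and 30 reads in serum/-LIF and 0 in both Royalactin libraries (limma adjusted p = 0.422), while Thy1 had a log2 fold change of -0.017. Pdgfra had one of 2.38, from 39 and 0 reads in serum/-LIF and 42 and 47 with Royalactin. Its conditions overlapped, and its ratio of means was 1.43. Of 8 presomitic mesoderm markers, where Dll1, Dll3 and Hes7 are known to cycle, 3 were tested and 0 passed, with sums of 214 and 139 against 277 and 422, and Tbx6, Msgn1, Ripply2 and Hes7 at 0. Tcf15 carried most of these sums, with 159 and 123 normalized counts against 207 and 407 (log2 fold change 1.05, limma adjusted p = 0.510), while T, the Brachyury gene, had a log2 fold change of -1.05. These markers were named after their values were seen. The part of such cells in the values of the Notch genes was not tested.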

How the data were processed

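Total RNA of J1 mESCs was depleted of ribosomal RNA and sequenced for 1 x 75 cycles. According to the paper's methods and the submitters' processing notes, the authors used Tophat on mm9, allowing 2 mismatches, then HTSeq-count and DESeq. The deposited values are normalized counts per library, a signal proportional to reads. The annotation and strand setting are not given in the sources used here. All 4 columns were mapped from the sample labels. Each value is a whole multiple of one step per library (100% within 0.01 of a read), which gave the read numbers. Reads are given as descriptions, and the tests used the deposited values. The table holds 27 symbols written as dates.

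Differences were tested with limma 3.58.1 in R 4.3.3 (lmFit, eBayes with a variance trend, two-sided) on log2(normalized count + 1) for genes with a mean of at least 10. Benjamini-Hochberg adjustment ran over all 12993 genes. The added 1 shrinks the fold changes of weakly expressed genes. Where 1 library of a group has no read, the fold change can instead exceed the ratio of the group means. For Notch4 it was 5.98-fold, against a ratio of means of 2.29. The fit was also run on simulated counts with the same relative spread for every gene and no batch effect. That run does not cover the replicate differences of these libraries. Positions and exon lengths are from GENCODE vM1 (mm9). Exon tiles were mapped with minimap2 2.31-r1302. Promoter sequences are RefSeq's (GRCm38.p6), a different build from the counts, and no position was compared between builds.

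The 10 genes and the lists were chosen with earlier results of these data known. Named genes are the 10 genes, and from each pathway list those past the threshold and the largest rise and fall, with the 3 genes most like the gene of smallest p. Values of some listed genes are not reported here. Other genes named without this rule were chosen after their values were seen. Floors of reads cover counting error only.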

Additional observations from a re-analysis of the deposited data

How the results depend on the processing

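None of the 9 tested genes passed the adjusted p-value of 0.05 (limma, Benjamini-Hochberg) as reported or in any alternative that kept all 4 libraries. These were other pseudocounts, filters and scalings, no variance trend and the replicate block. At an unadjusted limma p-value under 0.05 their number ran from 0 without the trend to 2 with the replicate block. Of all 12993 genes, 1135 and 1616 met this in those fits. Over 13 alternatives, which also left out each library in turn, 108 of 116 values for the 9 tested genes kept their direction. The other filters, the fit without the trend and the replicate block leave each log2 fold change as it was. The direction could not change in these, so the 108 say little about stability. With a library left out, the log2 fold change ran from -0.031 to 0.56 for Notch1, from -0.69 to 0.60 for Notch2, from -0.12 to 1.51 for Dll1, from -0.26 to 1.69 for Jag1, from -0.15 to 0.42 for Hes1, from -1.88 to 0.17 for Lfng and from -0.51 to 0.13 for Olig2, and without a change of sign from 0.36 to 2.26 for Neurog3, from 1.18 to 3.16 for Mib2 and from 0.43 to 1.25 for Hey1, and scaling to the total without Rn45s gave 0.012 for Notch2. The cause was not tested. With a library left out, 0 to 1 of the 9 genes met the p-value of 0.05 and 2-fold selection. Deviations of same-numbered replicates had a Pearson correlation of 0.0851 across genes. A low correlation over all genes cannot tell if same-numbered replicates shared a culture or batch. With the replicate block, which leaves 1 residual degree of freedom, 391 genes and 5 further pathway genes passed, Kat2b, Mib2, Tle4, Dtx4 and Id1 (named after its value was seen), and none of the 9. The limma p-values of that fit rest on the variance trend across genes, not on each gene's own replicate spread. Its larger number of calls is therefore not a more careful paired result.

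The 64 genes called overall became 32 at the pseudocount 0.1, 34 when every gene above 0 was tested, 99 at a mean of at least 50 and 0 without the trend (1135 at an unadjusted p-value under 0.05), and 0 to 60 with a library left out. The count was 0 without serum/-LIF replicate 1 (2518 at an unadjusted p-value under 0.05) and without Royalactin replicate 2 (547), 4 without Royalactin replicate 1 and 60 without serum/-LIF replicate 2. Upper-quartile scaling gave 34 higher and 12 lower calls against 43 and 21. The 1 further pathway gene was 0 without the trend (7 at an unadjusted p-value under 0.05) and 0 to 1 with a library left out. The 927 genes of the 2-fold selection were 519 to 1963 with a library left out, the highest without serum/-LIF replicate 1 and the lowest without Royalactin replicate 1, and the overlapping neighbours in the order of levels stayed 8 with the longest transcript's length.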
